A study of Macaca mulatta with 6 samples.

Results

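Paracrine receptors of the adrenal gland are described here together with the phospholipase gene PLCB4, over 6 clock times in rhesus macaques. The list holds 7 genes: the serotonin receptor HTR4, the VIP receptor VIPR1, the angiotensin receptor AGTR1, the endothelin receptors EDNRA and EDNRB, the vasopressin receptor AVPR1A, and PLCB4. Members were all probe sets that the platform annotation pairs with one of these names. They numbered 14 of the 22215 probe sets that are not controls, and each names 1 gene alone. They cover 6 of the 7 genes; EDNRA was not analysed here, because no probe set carried its name in the annotation used. HTR4 and PLCB4 were chosen by their values in a 24-h fit to these same arrays, PLCB4 also by its day against night difference, and the other genes were listed with those results known. The levels, curves and day differences of all 14 probe sets are therefore a description, and no p-value is given for them.

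The animals were 6 ovariectomized females, whose glands were taken at 4-hour steps from 3 AM to 11 PM, with 1 animal per clock time. All were held in single cages for 3 months with light and dark of 12 h each and went without food for 12 h before the left adrenal was frozen. When the lights came on was not stated in the labels. Age differed with clock time. The 3 AM and 7 AM animals were 12 years old, and the 11 AM animal was aged 10 years plus 37 days. The 3 PM animal was aged 8 years plus 106 days, the 7 PM animal 7 years plus 82 days, and the 11 PM animal 8 years plus 70 days. Total RNA of each gland was hybridised to 1 human expression array, and a value is the intensity of a probe set on a linear scale. Levels are compared only within a probe set, except that the level minimum and the check of the tissue rank probe sets by mean intensity, which also depends on how well each probe binds.

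The adrenal cortex makes steroid hormones under ACTH from the blood, and it also answers signals released within the gland by nerves, chromaffin cells, mast cells and vessels. HTR4 and VIPR1 couple to the G protein Gs, which switches on adenylyl cyclase and raises cAMP. AGTR1, EDNRA and AVPR1A couple mainly to Gq, as EDNRB can too, and Gq activates phospholipase C beta enzymes such as PLCB4. These enzymes cut a membrane lipid into inositol trisphosphate, which releases calcium, and diacylglycerol, which activates protein kinase C. In the zona glomerulosa, the outer layer of the cortex, this route from AGTR1 drives aldosterone production. In the human adrenal, serotonin acting on HTR4 stimulates corticosteroid secretion.

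The arrays resembled each other, with correlations over probe sets between 0.916 and 0.928. Added hybridisation controls were dimmer on the 3 AM array (geometric mean 542) and the 3 PM array (669) than on the remaining 4 (948 to 1101). The tissue label was borne out by cortex markers: CYP17A1, STAR and CYP11A1 lay in the top 1% of probe sets by mean level. Of 5 measured kidney markers, SLC12A1, NPHS1 and SLC34A1 lay below the level minimum described next, with SLC12A1 at 27.8 or less on every array, while AQP2 (353.3 to 567.3) and SLC12A3 (mean 165) passed it. Of the 8 listed cortex markers 7 were measured. The lowest by mean level were NR5A1, at percentile 72.3, and MC2R, at percentile 50.8 with 23.6 at 11 AM. The chromaffin markers TH and CHGB were also high, with at least 1902.6 and 7835 on every array, so the samples hold medulla as well as cortex. In whole glands, fewer cells of a type and less RNA per cell cannot be told apart.

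A level minimum was set at the median of all probe sets, an intensity of 157. By mean level 8 of the 14 member probe sets reached it and 6 did not. Nearest to it were AVPR1A 206252_s_at, with a mean log2 value of 7.71, just above, and HTR4 207577_at, with 7.22, just below. The probe set with the highest mean represents a gene, and all 6 genes passed in that form.

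**Figure D1:**
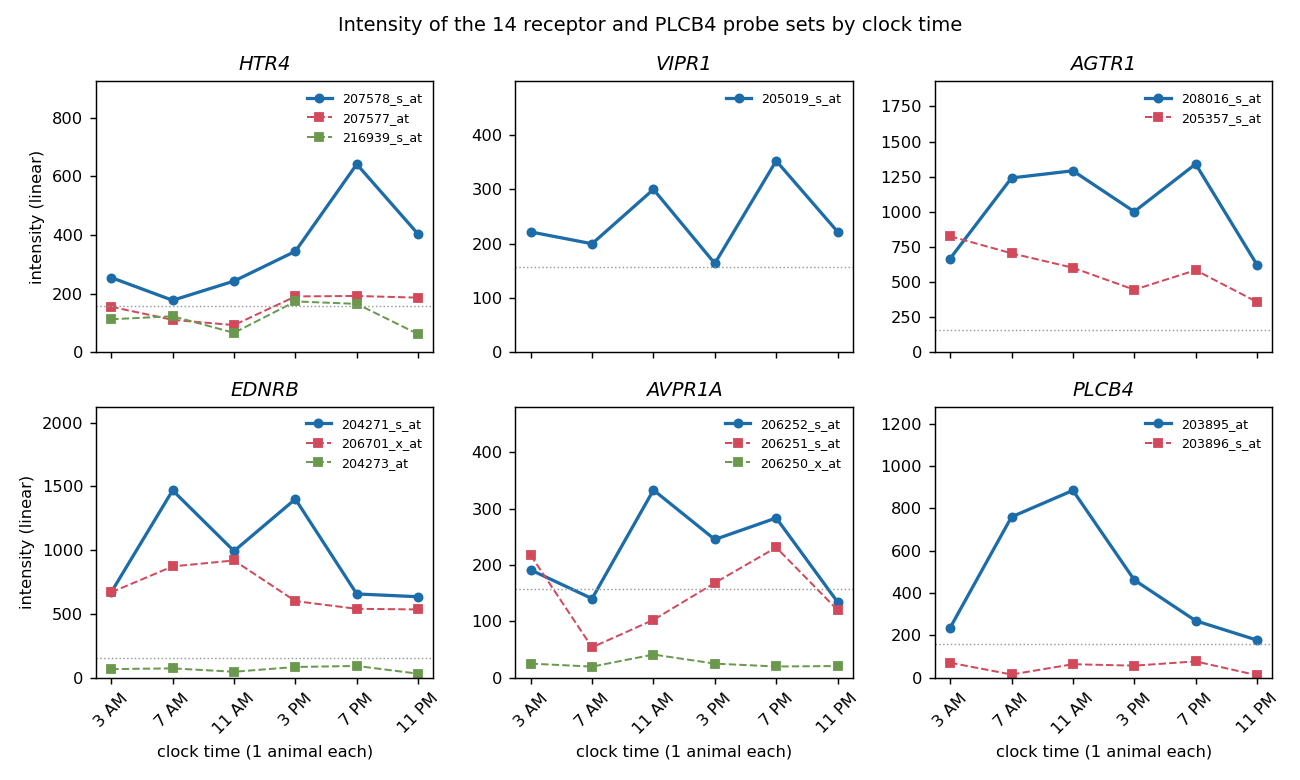
Intensity on a linear scale (vertical axis) against clock time (horizontal axis, 1 animal each) for all 14 probe sets, by gene. Solid lines with circles are the probe sets that represent the genes, dashed lines with squares the others, and the dotted line is the level minimum of 157. HTR4 207578_s_at stands highest at 7 PM (641.4) and PLCB4 203895_at at 11 AM (884.7).

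HTR4, the Gs-coupled serotonin receptor, was highest in the evening. Probe set 207578_s_at read 254.5 at 3 AM, 176.9 at 7 AM, 242.5 at 11 AM, 344.2 at 3 PM, 641.4 at 7 PM and 402.7 at 11 PM. The 7 PM gland stood alone at the top and the 7 AM gland at the bottom, with a ratio of 3.63 between them. The fitted 24-h curve peaked at 19.4 ± 0.775 h (SE), with a log2 peak-to-trough difference of 1.63 ± 0.33 (SE), a ratio of 3.10. The curve took up an R2 of 0.946 of the variation between arrays, and single glands scattered around it with an SD of 0.20 on the log2 scale. In the order of levels, only the neighbours 3 AM and 11 AM lay closer together than that scatter, at a log2 gap of 0.07. A straight line on the animals' age gave an R2 of 0.81, and the 3 youngest animals were those of 3 PM, 7 PM and 11 PM. With age in the fit the log2 peak-to-trough difference was 1.685 ± 1.49 (SE), and age and clock time cannot be told apart for this gene.

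The other HTR4 probe sets lay below the level minimum and followed this course in part. Probe set 207577_at read 154.9, 110.2, 92.4, 190.2, 191.7 and 186.0 in the same order of clock times from 3 AM. Its 3 afternoon and evening values were above all of the others, and its curve peaked at 20.5 h with a log2 peak-to-trough difference of 1.04 ± 0.36 (SE). Probe set 216939_s_at read 112.1, 122.6, 65.9, 173.1, 164.7 and 61.6. It was high at 3 PM and 7 PM but lowest at 11 PM, and the curve took up an R2 of 0.143.

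VIPR1, the Gs-coupled receptor for vasoactive intestinal peptide, showed no 24-h course that stood out from the scatter of single glands. Its only probe set, 205019_s_at, read 221.5 at 3 AM, 199.7 at 7 AM, 299.9 at 11 AM, 163.4 at 3 PM, 352.5 at 7 PM and 221.9 at 11 PM. The highest and the lowest gland were neighbours in time, 7 PM and 3 PM. The log2 peak-to-trough difference was 0.25 ± 0.51 (SE) and R2 was 0.0605, and all 5 gaps between neighbours in the order of levels were smaller than the residual SD of 0.50. Its lead at 7 PM, the array on which 7 of the 14 probe sets were highest, was within that SD.

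AGTR1, the main receptor for angiotensin II, had a pair of probe sets that both passed the level minimum and differed in their course. Probe set 208016_s_at read 666.8 at 3 AM, 1240.8 at 7 AM, 1291.8 at 11 AM, 1000.8 at 3 PM, 1340.1 at 7 PM and 621.8 at 11 PM. The 4 glands from 7 AM to 7 PM were all above those of 11 PM and 3 AM, and the gap between these groups, a log2 value of 0.59, was the only one beyond the residual SD of 0.42. Its curve peaked at 12.7 ± 1.85 h (SE), with a log2 peak-to-trough difference of 0.95 ± 0.46 (SE) and an R2 of 0.556.

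Probe set 205357_s_at of AGTR1 read 825.3 at 3 AM, 704.2 at 7 AM, 601.3 at 11 AM, 444.5 at 3 PM, 583.9 at 7 PM and 357.3 at 11 PM. Here the 3 AM gland was the highest, whereas it was next to lowest on the other probe set; both were lowest at 11 PM. The curve peaked at 6.57 h with a log2 peak-to-trough difference of 0.73 ± 0.47 (SE) and an R2 of 0.416, and a line on age gave a higher R2, 0.564. Without the 7 PM array the log2 difference was 1.28, and without 11 PM the peak lay at 2.98 h. Log2 values of the AGTR1 probe sets correlated at r = 0.262 over the 6 arrays. The files do not say which transcripts each probe set detects in macaque.

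EDNRB, an endothelin receptor of endothelial and other cells, was high in the day glands on the probe set that represents it. Probe set 204271_s_at read 670.5 at 3 AM, 1469.4 at 7 AM, 993.3 at 11 AM, 1401.1 at 3 PM, 656.7 at 7 PM and 634.9 at 11 PM. The 3 night values lay within a narrow band and all 3 day values above it. The fitted curve, with its peak at 10.8 h and a log2 peak-to-trough difference of 1.17 ± 0.46 (SE), missed the dip at 11 AM and had an R2 of 0.659. Without the 11 AM array the log2 difference was 1.79, its largest among the 6 fits that leave out 1 array.

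Probe set 206701_x_at of EDNRB had 919.6 at 11 AM and 872.8 at 7 AM as its highest values and 535.2 at 11 PM as its lowest. Its curve peaked at 8.66 h with a log2 peak-to-trough difference of 0.85 ± 0.30 (SE) and an R2 of 0.942. A line on age gave an R2 of 0.528, and with age in the fit the log2 difference was 1.31 ± 1.27 (SE). The suffix _x_ marks, on this platform, probes that can also bind other transcripts. The third EDNRB probe set, 204273_at, lay between 31.1 and 91.9, below the level minimum, and correlated with the others at r = 0.348 and -0.03.

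AVPR1A, a Gq-coupled vasopressin receptor, was measured near the lower limit. Probe set 206252_s_at read 191.1 at 3 AM, 140.2 at 7 AM, 332.8 at 11 AM, 245.1 at 3 PM, 283.2 at 7 PM and 134.2 at 11 PM. The 3 values from 11 AM to 7 PM were the highest, but every gap between neighbours in the order of levels was smaller than the residual SD of 0.47. The log2 peak-to-trough difference was 1.02 ± 0.49 (SE), with a peak at 14.4 h. Probe set 206251_s_at, below the minimum, ran from 53.8 at 7 AM to 230.9 at 7 PM and peaked at 19.95 h, and 206250_x_at did not exceed 41.0 on any array.

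PLCB4, the phospholipase downstream of Gq, had the largest 24-h curve of the 14 probe sets. Probe set 203895_at read 235.8 at 3 AM, 759.6 at 7 AM, 884.7 at 11 AM, 461.8 at 3 PM, 268.9 at 7 PM and 177.4 at 11 PM. The 7 AM and 11 AM glands were above the rest, 3 PM lay between, and the 3 night glands were at the bottom. The curve peaked at 10.5 ± 0.585 h (SE), with a log2 peak-to-trough difference of 2.38 ± 0.36 (SE), a ratio of 5.21, and an R2 of 0.953. With 1 array left out the log2 difference stayed between 2.20 and 2.54. With age in the fit it was 3.23 ± 1.21 (SE), with a peak at 8.999 h.

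The second PLCB4 probe set, 203896_s_at, did not show this course. It read 70.5, 15, 63.5, 56.7, 76.9 and 11.4 from 3 AM to 11 PM, all below the level minimum, and was next to lowest at 7 AM, where the first was next to highest. Log2 values of the PLCB4 probe sets correlated at r = 0.0833 over the 6 arrays. The description of PLCB4 thus rests on 1 probe set.

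**Figure D2:**
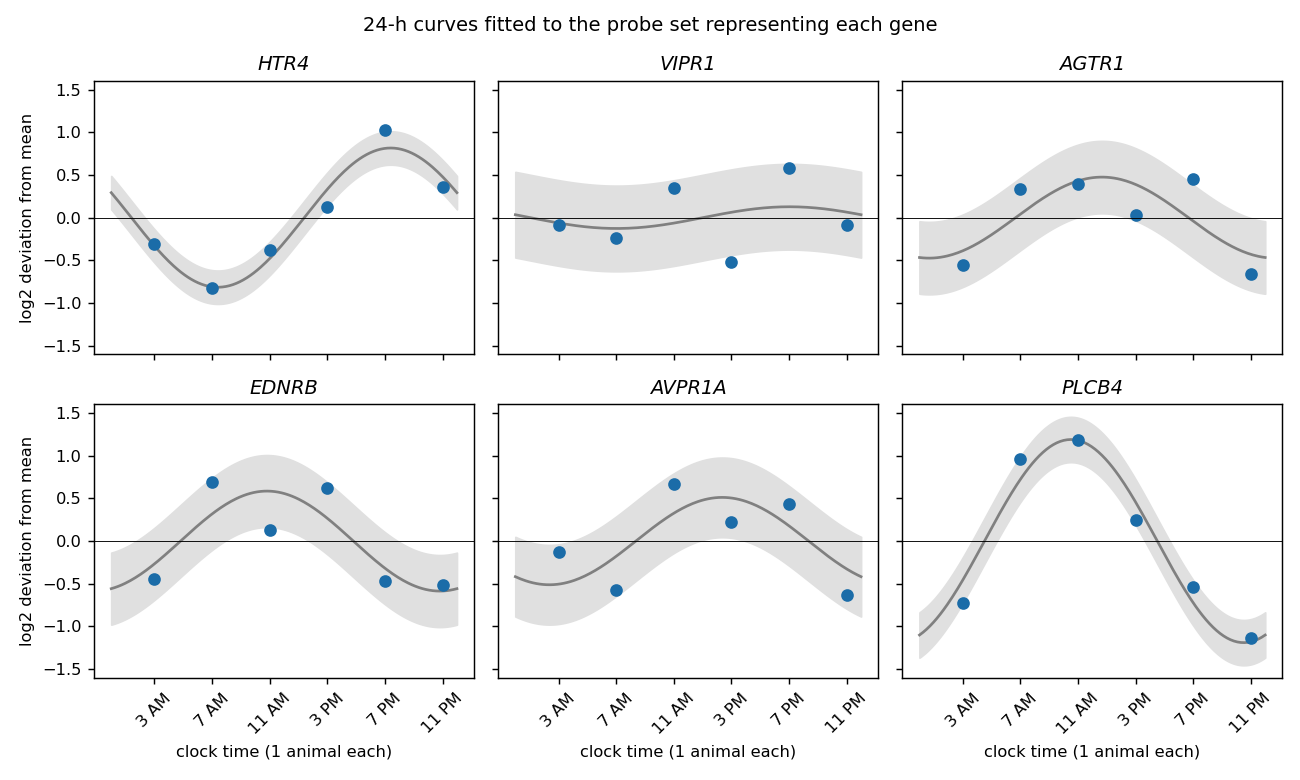
Log2 deviation from the mean over arrays (vertical axis) against clock time (horizontal axis, 1 animal each) for the probe set that represents each of the 6 genes. Points are single glands, lines the fitted 24-h cosines and grey bands 1 residual SD to each side. HTR4 (R2 0.946) and PLCB4 (R2 0.953) lie close to their curves, while VIPR1 (R2 0.0605) does not follow one.

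Across the 6 representing probe sets the median log2 peak-to-trough difference was 1.098, against 0.43 over the 7164 genes tested. The genes were listed with these values known, so nothing is read from that gap. A cosine fitted to 6 single glands takes up much of their scatter, as the median R2 of 0.399 over all genes shows. By limma's moderated F test 0 of the 7164 genes, members included, passed adjustment over all genes, a percent called of 0, and the lowest adjusted p was 0.2185. At an unadjusted p under 0.05 with a ratio of at least 1.5, 398 genes were called, or 5.56%. Within single genes, the 11 pairs of probe sets correlated between r = -0.03 and r = 0.770 over the 6 arrays, highest for HTR4 207577_at and 207578_s_at.

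**Figure D3:**
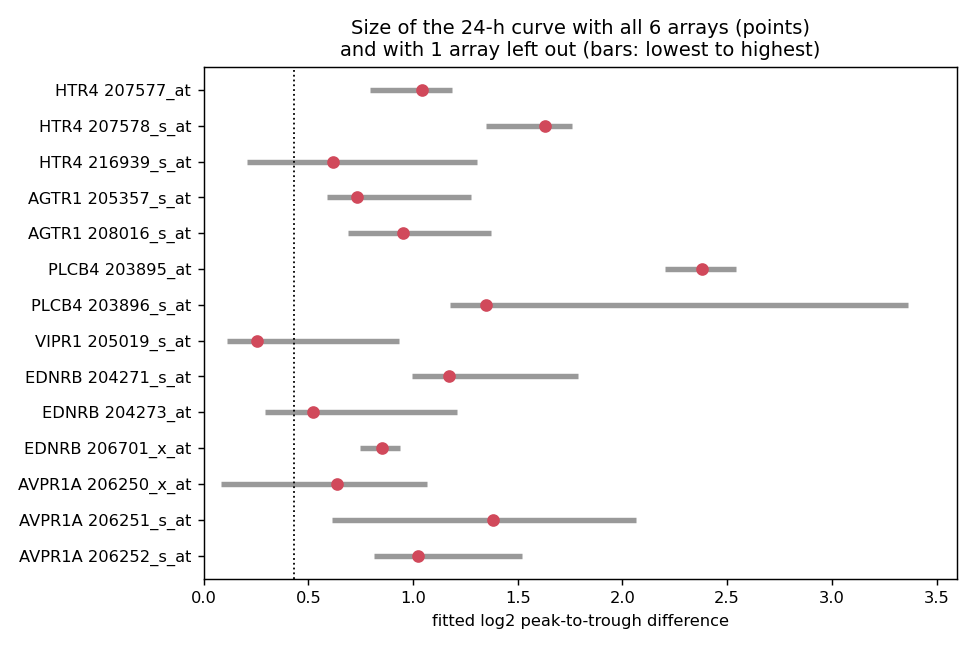
Fitted log2 peak-to-trough difference (horizontal axis) of each of the 14 probe sets (vertical axis). Points are fits to all 6 arrays, bars run from the lowest to the highest of the 6 fits that leave out 1 array, and the dotted line is the median over all genes tested, 0.43. PLCB4 203895_at keeps a narrow range (2.20 to 2.54) and PLCB4 203896_s_at a wide one (1.18 to 3.36).

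Between the day arrays (7 AM, 11 AM and 3 PM) and the night arrays (7 PM, 11 PM and 3 AM), named by the clock alone, PLCB4 203895_at and EDNRB 204271_s_at lay apart. For PLCB4 203895_at the day glands averaged 9.41 ± 0.49 and the night glands 7.81 ± 0.31 on the log2 scale (SD, n = 3 each), a difference of 1.59 ± 0.32 (SE) or 3.01-fold. For EDNRB 204271_s_at the day glands averaged 10.31 ± 0.31 and the night glands 9.355 ± 0.0397, a difference of 0.96 ± 0.24 (SE) or 1.94-fold. These were the 2 of 14 probe sets whose day and night values did not overlap, and among all genes tested 10.9% had no overlap in either direction. PLCB4 was chosen by its day difference, so nothing is read from this count. EDNRB 206701_x_at overlapped, with 669.6 at 3 AM above 600.6 at 3 PM and a difference of 0.44 ± 0.26 (SE).

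For HTR4 207578_s_at the day glands averaged 7.945 ± 0.48 and the night glands 8.66 ± 0.67 on the log2 scale, a difference of -0.72 ± 0.42 (SE), with overlap. For AGTR1 208016_s_at the difference was 0.51 ± 0.35 (SE), for AVPR1A 206252_s_at 0.22 ± 0.42 (SE) and for VIPR1 -0.27 ± 0.33 (SE). When 11 AM, 3 PM and 7 PM were set against 11 PM, 3 AM and 7 AM, the difference was 0.59 for PLCB4, 0.18 for EDNRB 204271_s_at and 0.52 for HTR4 207578_s_at. By limma 0 of 7164 genes passed adjustment in the day contrast, a percent called of 0, with 386 at an unadjusted p under 0.05; with a difference of at least 1.5-fold, 2.15% were called higher by day and 1.7% lower by day, together 3.85%.

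The 14 probe sets did not share a time of day but often shared their lowest array. The highest value fell at 7 PM for 7 of them, at 11 AM for 4, and at 3 AM, 7 AM and 3 PM for 1 each. The lowest value fell at 11 PM for 9 of them, among them both AGTR1 and all 3 EDNRB probe sets and both of PLCB4, and at 7 AM for 3. Among all genes tested 17.4% were lowest at 11 PM and 18.3% highest at 7 PM. Probe sets of a gene share a transcript, so these counts are not of 14 separate measurements. Between genes, PLCB4 203895_at correlated over the 6 arrays at r = 0.803 with EDNRB 204271_s_at and at r = 0.87 with EDNRB 206701_x_at. With AGTR1 it correlated at r = 0.732 for 208016_s_at but at r = 0.315 for 205357_s_at. HTR4 207578_s_at correlated at r = -0.63 with PLCB4 203895_at and at r = -0.589 with EDNRB 204271_s_at.

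Markers of other cell types moved over the same arrays. Smooth muscle markers, of which 6 were tested, lay at -1.04 from their own means at 11 PM on the log2 scale and at 0.52 at 7 PM and 0.65 at 3 AM. The summed intensity of 8 measured smooth muscle markers was 3353 at 11 PM and 4100 to 8223 on the other arrays, with the contractile protein CNN1 at 20.4 at 11 PM. AGTR1 208016_s_at and AVPR1A 206252_s_at, genes known from vascular smooth muscle, also had their lowest value on the 11 PM array. At 3 AM these probe sets lay at -0.56 and -0.13 from their own means on the log2 scale, but AGTR1 205357_s_at lay at 0.55 and AVPR1A 206251_s_at at 0.70. The part of muscle content in these values was not tested.

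Chromaffin markers, of which 9 were tested, lay at 0.69 at 7 AM, 0.14 at 11 AM and 0.24 at 3 PM, against -0.70 at 3 AM, -0.000771 at 7 PM and -0.37 at 11 PM. The summed intensity of the 10 measured markers, SLC18A2 below the minimum included, ran from 15970 at 3 AM to 41390 at 7 AM, and 0 of the 9 exceeded their own mean at 3 AM. By limma 4 of the 9, TH, DBH, PNMT and GATA3, were called higher by day, 44.4% against 2.15% of all genes tested. These 4 are markers of 1 cell type in the same 6 glands, so they are not separate measurements. Marker genes were also picked after their values were seen, so nothing is read from this share. PLCB4 203895_at and EDNRB 204271_s_at had low values on the same 3 AM and 11 PM arrays. At 7 PM they were low as well, at -0.53 and -0.47 from their own means, while 5 of the 9 chromaffin markers exceeded theirs. EDNRB 204271_s_at also had lower values at 11 AM than at 7 AM and 3 PM, as the mean of the chromaffin markers did. PNMT, CHGA and SCG2 instead fell from 7 AM through 3 PM, and SLC18A1 rose. PLCB4 203895_at had similar values at 7 AM and 11 AM, with a gap of 0.22 inside its residual SD of 0.265. Zona glomerulosa markers, of which 6 were tested, lay between -0.23 at 11 PM and 0.34 at 7 AM, with the aldosterone synthase gene CYP11B2 between 628.9 and 1329.3. Cortex markers were highest at 7 PM (0.35) and 11 PM (0.37), the arrays on which HTR4 207578_s_at was also highest, and the 8 tested endothelial markers lay between -0.22 and 0.20. The part of cell composition in the receptor values was not tested.

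The genes closest to each member were ranked by Pearson correlation of log2 values over the 6 arrays, among 7164 genes. PLCB4 was most like ADCY1 (r = 0.976), H3-3A (r = 0.976), CPE (r = 0.972), CNNM1 (r = 0.969) and FGF14 (r = 0.966). ADCY1 encodes an adenylyl cyclase activated by calcium and calmodulin, CPE a carboxypeptidase that trims prohormones, and FGF14 a modulator of sodium channels. Most opposite to PLCB4 were WSB1 (r = -0.991), PHACTR4 (r = -0.987) and SHQ1 (r = -0.98). ADCY1 had 195.6 at 3 AM, 328.4 at 7 AM, 320.8 at 11 AM, 292.0 at 3 PM, 201.5 at 7 PM and 171.9 at 11 PM, so its highest and lowest glands were the same as those of PLCB4 apart from the order at the top.

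HTR4 was most like CATSPERZ (r = 0.977), HEY2 (r = 0.977), SFI1 (r = 0.976), NIT1 (r = 0.974) and N4BP1 (r = 0.97), and most opposite to NBEA (r = -0.99), TRIB1 (r = -0.988) and RUFY3 (r = -0.973). TRIB1, a pseudokinase, had 512.4 at 7 AM and 177.5 at 7 PM as its highest and lowest values, the reverse of HTR4. AGTR1 208016_s_at was most like RALGAPB (r = 0.991), JAK2 (r = 0.983), SULT2B1 (r = 0.979), PHF21A (r = 0.977) and SCRN1 (r = 0.971), and most opposite to APPL2 (r = -0.984), ZFYVE21 (r = -0.969) and PNO1 (r = -0.969). JAK2, a tyrosine kinase, spanned only 256.7 to 315.4, so likeness of shape did not mean likeness of size. Correlations above 0.95 were reached by 18 genes for HTR4, 16 for AGTR1 and 9 for PLCB4. How many genes would reach that bound by chance over 6 arrays was not tested. Nothing is therefore read from these counts, or from the functions of the genes named as most alike or most opposite.

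Ligands of these receptors were mostly at the limit of measurement. AGT, the precursor of angiotensin II, was well measured, with 471.7, 342.6, 574.9, 455.4, 674.7 and 387.5 from 3 AM to 11 PM. ADCYAP1, which encodes the peptide PACAP, had 109.0 at 7 AM as its lowest and 225.8 at 3 PM as its highest value. Neither was called by limma in the 24-h fit or in the day contrast. VIP, EDN1, EDN2, EDN3 and AVP had mean intensities of 29.4, 33.6, 19.2, 79.9 and 69.6, all below the level minimum. TPH1, the rate-limiting enzyme of serotonin synthesis outside the nervous system, did not exceed 9.4 on any array, and DDC, the next enzyme, had a mean of 193 and a mean log2 value just below the minimum. Among converting enzymes, ECE1 had 692.1 to 1033.2 and was not called, and ACE lay below the minimum with a mean of 124.

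Of 160 other genes of these signalling routes, 139 were on probe sets naming them alone and 80 passed the level minimum. By limma 5 of the 80 (6.25%) were called in the 24-h fit at an unadjusted p under 0.05 with a ratio of at least 1.5, close to the 5.56% of all genes tested. In the day contrast 5 were called higher by day and 1 lower, 7.5% against 3.85% of all genes tested. None passed adjustment over all genes. Their median log2 peak-to-trough difference was 0.49 and their median day minus night difference -0.03, against a median peak-to-trough difference of 0.43 over all genes.

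Among other receptors of the same ligand families, the serotonin receptors HTR1B, HTR1F, HTR2A, HTR3A, HTR3B and HTR6 passed the level minimum. In the angiotensin list the receptor gene MAS1 passed too. It ran from 66.3 at 3 PM to 331.6 at 11 AM, with a log2 peak-to-trough difference of 0.87 ± 0.71 (SE). HTR1B, a Gi-coupled receptor, had 224.4, 254.9 and 63.8 in the day glands, against 403.7, 270.6 and 316.8 in the night glands. It was called lower by day (log2 -1.075 ± 0.47, SE), with the 3 PM value far below the rest; without the 3 PM array the call was lost, as it was without 3 AM, 7 PM or 11 PM. The others were not called in either fit, with 24-h log2 differences from 0.25 for HTR2A to 0.96 for HTR1F. AGTR2, VIPR2, ADCYAP1R1, AVPR1B, AVPR2 and OXTR were below the minimum, with AVPR1B between 121.7 and 160.5. Of the 20 tested receptors for other hormones and transmitters, such as the ACTH receptor MC2R and the natriuretic peptide receptor NPR1, 0 were called in either fit by limma. The shares over all genes tested were 5.56% in the 24-h fit and 3.85% in the day contrast. RAMP1, which encodes a receptor partner protein, passed the unadjusted threshold in the day contrast, but its log2 difference of 0.57 ± 0.23 (SE) was under 1.5-fold.

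Among regulators of G protein signalling, RGS2, which shortens signalling by Gq, had 1120.5, 2279.1 and 1166.5 in the day glands, against 271.9, 630.7 and 288.6 in the night glands. All day values were above all night values, and the log2 difference was 1.967 ± 0.385 (SE), with an adjusted p of 0.62 by limma over all genes. Its 24-h curve peaked at 10.98 h, with a log2 peak-to-trough difference of 2.585 ± 0.69 (SE) and an adjusted p of 0.836. It was not called without the 11 AM array, and without 11 PM the log2 difference was 4.03. The receptor kinase genes GRK6 and GRK4, whose products start receptor desensitisation, were called higher by day by 1.005 ± 0.32 (SE) and 1.01 ± 0.34 (SE) on the log2 scale. The call of GRK4 was lost without 7 AM or without 3 PM. GRK6 was also called in the 24-h fit, with a peak at 11.04 h and a log2 peak-to-trough difference of 1.56 ± 0.41 (SE). Without 11 PM that difference was 1.02 and the call was lost, and the day difference was 0.67. Its 3 other probe sets, all below the minimum, peaked at 12.3 h, 18.9 h and 23.8 h.

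Of the 6 tested genes of the Gs route, ADCY1 and ADCY2 were called in both fits, against 5.56% (24-h) and 3.85% (day) of all genes tested. ADCY1 peaked at 10.7 h, with a log2 peak-to-trough difference of 1.03 ± 0.26 (SE), and was higher by day by 0.72 ± 0.18 (SE). ADCY2 had 690.4, 517.9 and 662.9 in the day glands, against 508.8, 305.6 and 225.4 in the night glands, a log2 difference of 0.92 ± 0.30 (SE). The day call of ADCY2 was lost without 3 AM. The 24-h call was lost without 11 PM for both and also without 3 AM, 3 PM or 7 PM for ADCY2. A second ADCY2 probe set above the minimum peaked at 13.5 h, against 12.9 h, while the other ADCY1 probe sets, below the minimum, peaked at 20.4 h and 21.2 h.

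The fifth gene called in the 24-h fit was SLC18A1, a vesicular monoamine transporter of chromaffin cells that was also in the chromaffin list, with a peak at 12.25 h and a log2 peak-to-trough difference of 1.07 ± 0.33 (SE). Its call was lost without 11 AM, 3 PM, 7 PM or 11 PM, with a log2 difference of 0.67 in the fit without 11 PM. The Gs subunit gene GNAS, with 15286.4 to 24468.4, was not called.

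Of the 25 tested genes of the Gq, phospholipase C and calcium route other than PLCB4, 0 were called in either fit, by limma at the unadjusted threshold with the minimum ratio. Of all genes tested 5.56% were called in the 24-h fit and 3.85% in the day contrast, so nothing is read from this count. PRKD1, a kinase activated through protein kinase C, had the smallest p of the 24-h fit among them, with a peak at 7.065 h and a log2 peak-to-trough difference of 0.96 ± 0.34 (SE). Among the sister phospholipases, the log2 peak-to-trough difference was 0.18 ± 0.36 (SE) for PLCB1, PLCB3 had 1.56 ± 0.60 (SE) with a peak at 15.5 h, and PLCB2 lay below the minimum. PLCB3 had 67.7 at 3 AM and 197.7 to 329.3 on the other arrays. The G protein subunit genes GNAQ and GNA11 had log2 peak-to-trough differences of 0.53 ± 0.50 and 0.23 ± 0.28 (SE). For the angiotensin list the smallest p belonged to the peptidase gene ENPEP, for the endothelin list to ECE2, and for the VIP list to ADCYAP1, with log2 differences of 0.62, 1.12 and 0.81. The receptor list was led by MC2R, which had 23.6 at 11 AM and 161.4 to 350.0 elsewhere.

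**Figure D4:**
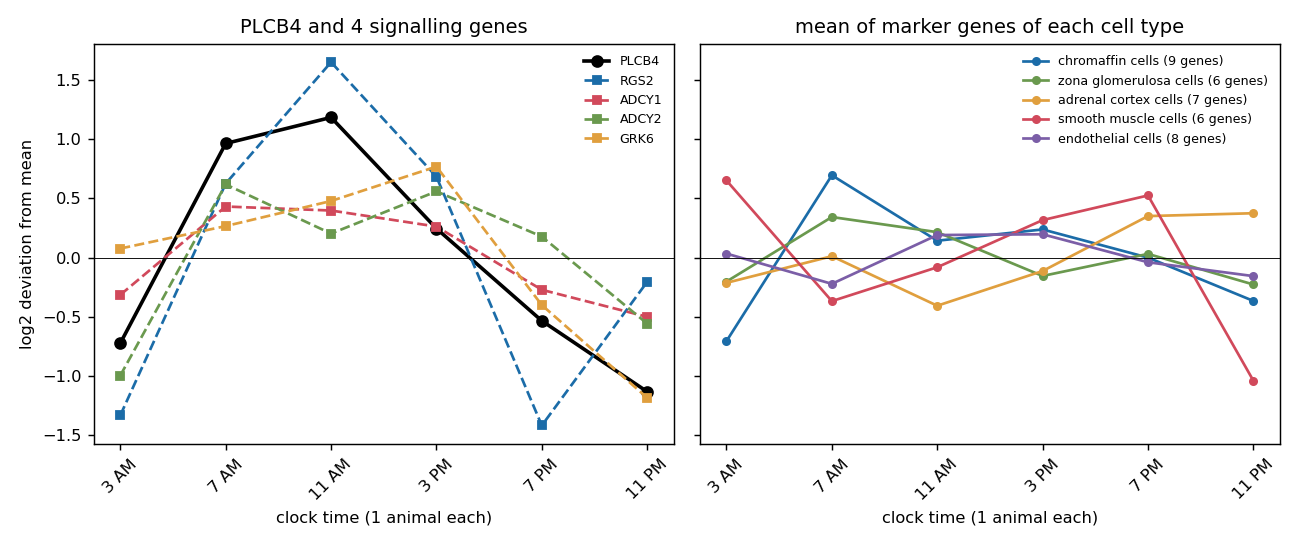
Log2 deviation from the mean over arrays (vertical axis) against clock time (horizontal axis, 1 animal each). Left, PLCB4 203895_at with the 4 signalling genes called in both the 24-h fit and the day contrast; right, the mean of the tested markers of 5 cell types. PLCB4 and RGS2 are highest at 11 AM, chromaffin markers at 7 AM (0.69), and smooth muscle markers are lowest at 11 PM (-1.04).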

How the data were processed

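Per the labels, total RNA from the left adrenal of each of 6 animals was copied into biotinylated cRNA and hybridised to 1 Affymetrix human array. The deposited values are 1 linear intensity per probe set and array, scaled by the authors to a common level, as the 2% trimmed means of 325.04 to 325.09 show. Neither the software nor the summary method is given in the sources used here. Human probes can underread diverged macaque transcripts. Of 22283 probe sets 68 are controls, 19065 name 1 gene, 1043 several and 2107 none.

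Values were taken as log2(value + 1). For tests each gene was represented by its probe set of highest mean among those naming it alone, and genes at or above the median level of all probe sets, log2 7.30, were kept (7164 of 11963). A 24-h cosine was fitted in R 4.3.3 (limma 3.58.1), with the moderated F test (3 residual degrees of freedom). The day contrast set 3 arrays against 3 with limma's moderated t statistic. Both used Benjamini-Hochberg adjustment over all genes; the looser call was an unadjusted p under 0.05 with at least 1.5-fold. Values of the members, with moderated SEs, come from the same fits to all 22215 probe sets. The only error is the scatter of single animals, and the number of arrays limits precision. The fits were tested on simulated data. There 2.99% of genes given a 2-fold 24-h curve passed adjustment, 28.4% at 4-fold and 63.6% at 8-fold. A count of 0 genes past adjustment therefore does not show that no gene varied.

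The members and lists were chosen with earlier results of these data known. Named genes are every probe set of the members, the 5 most and 3 least correlated genes of HTR4, AGTR1 and PLCB4, the ligands, their enzymes and related receptors, the other phospholipase C beta genes, and, from each pathway list, every called gene or else the one with the smallest p. Marker genes and other examples were picked after their values were seen. Lists covered the serotonin, angiotensin, VIP and PACAP, endothelin and vasopressin systems, Gq and calcium, Gs, desensitisation and other receptors. Marker lists covered cortex, zona glomerulosa, chromaffin, mast, smooth muscle, endothelial, fibroblast, adipocyte, glial and kidney cells. Alternatives were filters on level, scaling, pseudocount, probe set choice, variance prior, age, left-out arrays and another split of the day.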

Additional observations from a re-analysis of the deposited data

How the results depend on the processing

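Genes called in the 24-h fit numbered 398, and 621 with no filter on level, 244 with the stricter filter (1 past adjustment, PER2, adjusted p = 0.0326 by limma) and 265 with the ordinary test. In the day contrast 276 became 547, 125 and 124 under the same settings. Without single arrays these counts ran from 362 to 536 and from 286 to 355, with 1 gene, IRGQ, past adjustment in the day contrast without 11 PM. Pathway genes called in the 24-h fit numbered 5, with 2 under the stricter filter, 1 with the ordinary test, 11 with age as a covariate, 12 without the 3 AM and 3 PM arrays, and 3 (without 11 PM) to 8 (without 3 PM) without single arrays. The filters change the number of genes tested; otherwise the cause was not tested. For the members, 285 values stayed within 1 SE of the reported one under the alternatives and 37 did not, 1 of them the day difference of PLCB4 203895_at with the later split of the day (0.59, against 1.59). Where the second probe set of AGTR1, 205357_s_at, was fitted with age, its peak moved to 18.1 h. VIPR1 ranged from 0.11 to 0.93 in log2 peak-to-trough difference without single arrays, highest without 3 PM. No paired analysis was possible because a clock time is a single animal. Detection calls are not used here, so signal over background is limited by the level filter alone.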

Other observations

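Mast cells of the human adrenal contain serotonin, the ligand of HTR4. Of 9 listed mast cell markers 8 were measured and 4 passed the level minimum. TPSAB1, a tryptase of mast cell granules, had 153.1 at 3 AM, 117.8 at 7 AM, 198.7 at 11 AM, 309.2 at 3 PM, 275.7 at 7 PM and 278.2 at 11 PM. Its 3 highest glands were the afternoon and evening ones, as for HTR4 207578_s_at and 207577_at. Its fitted peak was at 18.1 h, with a log2 peak-to-trough difference of 1.345 ± 0.30 (SE) and an adjusted p of 0.836 by limma. Other mast cell genes differed from it. HDC, the histamine-forming enzyme, was above the minimum, with 370.2 at 3 AM as its highest and 120.5 at 11 PM as its lowest value. TPSB2, a sister tryptase, had 156.4 at 3 AM and 90.5 at 11 PM, and CPA3 had 147.6 at 3 AM and at most 69.0 later, both below the minimum. KIT, which is not limited to mast cells, was highest at 7 AM (1152.6) and lowest at 7 PM (263.1). By limma KIT was called higher by day and, like TPSAB1, in the 24-h fit, at the unadjusted threshold but not past adjustment. Averaged over the 4 tested genes of this list, the log2 deviation was lowest at 11 PM (-0.16) and 7 PM (-0.12). On those arrays HTR4 207578_s_at was highest. The average was 0.18 in the 7 AM gland, where this HTR4 probe set was lowest, and 0.19 in the 3 PM gland. The part of mast cell content in the HTR4 values was not tested.

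Markers of other cell types were also called, where 1.7% of all genes tested were called lower by day and 3.85% in either direction. Of 3 tested adipocyte markers 2, FABP4 and LPL, were called lower by day, and their list lay at 0.63 on the log2 scale at 3 AM and at -0.63 at 3 PM. Of the fibroblast and capsule markers 1 of 5, COL3A1, and of the glial markers 1 of 2, SOX10, were called lower by day, and 0 of 2 tested kidney markers were called by limma, none of them at an unadjusted p under 0.05. None of these calls passed adjustment over all genes. Markers were picked after their values were seen, so nothing is read from these counts.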
